A study of Mus musculus with 10 samples.

Results

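Small nucleolar RNA (snoRNA) genes were taken as all genes whose symbol begins with Snord or Snora, read from probe sets that name exactly 1 gene. They came to 51 of the 19920 genes of the gene-level expression table, 31 Snord genes (box C/D) and 20 Snora genes (H/ACA), on 56 probe sets. In the exon-level table, which names 20352 genes, 33 of the 51 had probe sets of their own symbol, 22 Snord and 11 Snora. Another 41 gene-level probe sets named a snoRNA together with a further gene and were left out; 24 of them carried copies of the Snord116 cluster. The platform set further limits. There were 6 symbols read only in the exon-level table (Snora19, Snora34, Snora36b, Snora5c, Snora61 and Snord7), which are not members, 5 members had several gene-level probe sets, and 3 members lay below the brightness filter of 3.51 on the log2 scale and were not tested (Snora2b at a mean of 2.84, Snord118 at 2.91 and Snord52 at 3.25).

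The arrays compared splenic CD3+ T cells of male Balb/c mice aged 12 wk, either wild type (WT, 5 arrays) or KLF13 knockout (KO, 5 arrays), with each array labelled as a separate mouse. KLF13 is a zinc-finger transcription factor of the Krüppel-like family that binds GC-rich and CACCC-containing promoters. All cells of both genotypes had been activated for 4 days with plate-bound anti-CD3 and soluble anti-CD28, a stimulus that drives T cells into growth and division. How the knockout allele was built and which cells lack the gene is not given in the labels.

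snoRNAs are short non-coding RNAs that guide chemical modification of ribosomal and spliceosomal RNA in the nucleolus. Box C/D snoRNAs direct methylation of the ribose and work with fibrillarin, Nop56, Nop58 and Snu13, while H/ACA snoRNAs direct the conversion of uridine to pseudouridine and work with dyskerin, Nhp2, Nop10 and Gar1. In mammals most of them lie inside introns of host genes, many of which encode ribosomal proteins, translation factors or spliced RNAs without a conserved protein, and are trimmed out after splicing. Mature snoRNAs carry no poly(A) tail. Per the labels, the RNA here was primed with an oligo(dT) primer and amplified. Whether a probe set read a mature snoRNA, an unspliced host transcript or both was not tested. The values below are therefore probe set signals and not measured levels of mature snoRNAs.

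The 10 arrays fell into 3 sets that could not be placed on a shared scale: WT4, WT5, KO4 and KO5 in the gene-level table, and replicates 2 and 3 and replicate 1 of the exon-level table, whose median signals were 6.25 to 6.43 and 5.21 to 5.23 on the log2 scale. These sets were recognised from the arrays in an earlier analysis of the same data. Klf13 itself fell in the gene-level table, from 7.21 and 7.54 in WT to 6.21 and 6.46 in KO, a difference of -1.05 ± 0.16 on the log2 scale (SE, 2 arrays against 2; limma adjusted p = 0.0170), and was lower by point estimate in the other sets, at -0.81 and -0.62. The T cell markers were all above the filter in the gene-level table (8 of 8, mean 9.69 to 9.89 in the 4 arrays), while 2 of 6 B cell, 4 of 7 myeloid and 1 of 4 natural killer cell markers were, with means between 3.59 and 4.08, as were 2 of 2 erythroid markers (4.73 to 5.01), and no marker passed the test. In the exon-level table KO3 had a narrower spread of signal than the others, with an interquartile range of 3.10 against 3.43 to 3.56. The top of the signal range was lower in both KO2 and KO3. The level exceeded by 1% of probe sets was 11.40 and 11.57 there, against 12.23 and 12.31 in WT2 and WT3. Fewer cells of a type and less RNA per cell cannot be told apart in these bulk samples.

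In the gene-level table, 1 snoRNA gene fell in KO cells and none rose. Snord33, a box C/D snoRNA encoded in an intron of the ribosomal protein gene Rpl13a, was the member that passed the test. It was 1 of 29 Snord genes tested (3.45%) and none of 19 Snora genes passed, against 2.02% of all 13944 genes tested in this comparison (1.46% lower, 0.559% higher; limma, adjusted p under 0.05). Without adjustment, 5 of the 29 Snord genes (17.2%) and 1 of the 19 Snora genes (5.26%) had a p under 0.05, beside 14.8% of all genes, so the Snord share was near the background and the Snora share below it. The 2 families leaned to opposite sides by point estimate: 19 Snord genes were higher and 10 lower, with a median difference of 0.12 and a range from -1.30 to 0.51, while 4 Snora genes were higher and 15 lower, with a median of -0.15 and a range from -0.53 to 0.28. The median over all genes was -0.0061, with 6773 higher and 7171 lower. The Snord median lay between 0.01 and 0.07 when any one of the 4 arrays was left out, while the Snora median lay between -0.15 and -0.06.

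**Figure D1:**
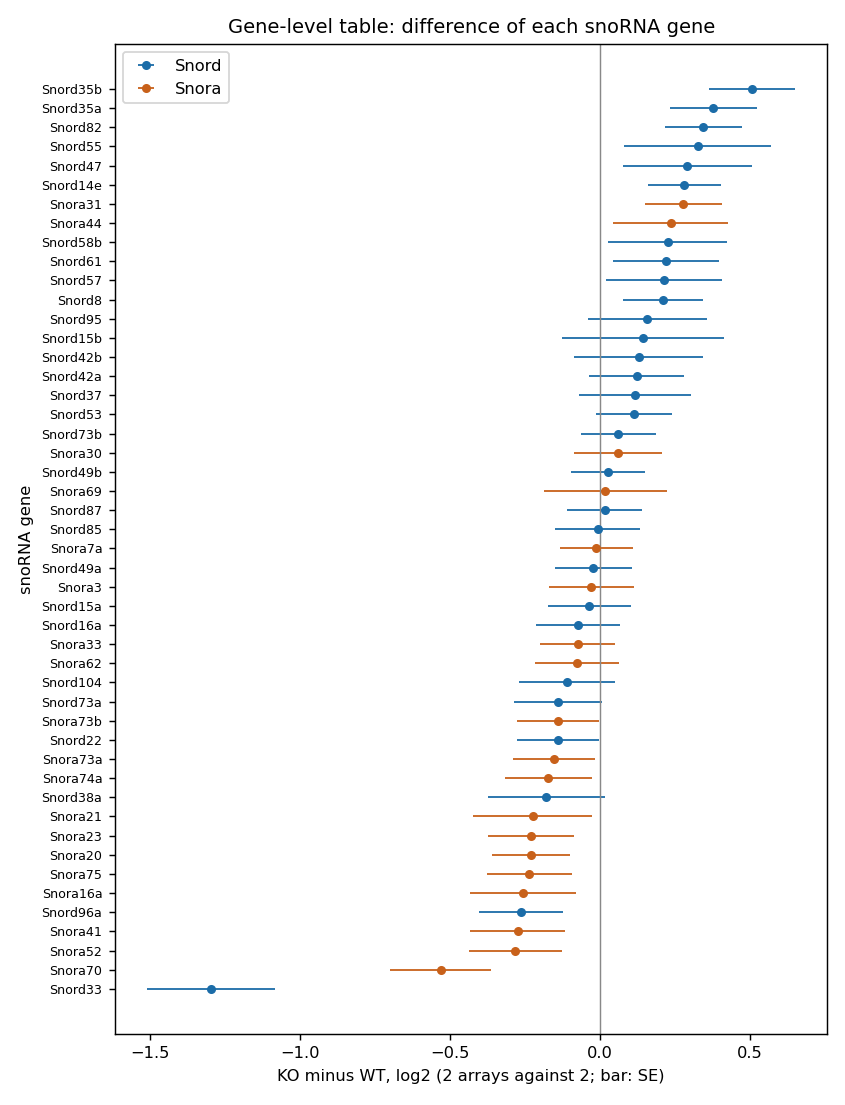
Each point is the KO minus WT difference of 1 snoRNA gene in the gene-level table on the log2 scale (2 KO arrays against 2 WT arrays), with a bar of 1 SE from limma, for the 29 Snord (blue) and 19 Snora (orange) genes above the brightness filter. Snord33 stands alone at -1.30 at the bottom, the other genes lie between -0.53 and 0.51, and the upper end is mostly Snord.

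Counted by arrays, the KO and WT values did not overlap in 2 Snord genes on the low side (6.9%) and 6 on the high side (20.7%), beside 24.6% and 20.2% of all genes. Among Snora genes 5 were low (26.3%) and 1 was high (5.26%). The Snord genes that lay below WT without overlap were thus fewer than the background share, and the other shares were near or below it.

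Snord33 was lower in every KO array of every set. Its signal in WT4 and WT5 was 8.68 and 8.61 on the log2 scale, against 7.72 in KO4 and 6.98 in KO5. The difference was -1.30 ± 0.21 (SE, 2 arrays against 2, limma adjusted p = 0.0231), which corresponds to 0.407 of the WT signal. Both KO arrays lay clearly below both WT arrays, and KO5 lay below KO4. In replicates 2 and 3 of the exon-level table the values were 8.09 and 8.04 in WT2 and WT3 against 6.78 and 6.75 in KO2 and KO3, also a difference of -1.30 (SE 0.22; limma adjusted p = 0.302, unadjusted p = 0.00118). Without KO3, the array of narrow spread, the difference was -1.28. WT1 was at 8.28 and KO1 at 6.78, a difference of -1.4999. With the 3 sets as a block, the difference was -1.34 ± 0.14 (SE, 5 arrays against 5; limma adjusted p = 0.00298), and the difference between the gene-level table and replicates 2 and 3 was -0.0001 (limma adjusted p = 0.9998). The call in the gene-level table held with any single array left out (adjusted p 0.000241 to 0.0370) and was lost when each probe set was tested on its own (limma adjusted p = 0.240); the call over all sets was lost when the sets were replaced by the table as a block (limma adjusted p = 0.136).

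Rpl13a, the host of Snord33, encodes a protein of the large ribosomal subunit and holds 4 snoRNAs, in the order Snord35a, Snord34, Snord33 and Snord32a along GRCm38.p6 on chromosome 7. In the same annotation the microRNA gene Mir5121 overlaps Snord33, so a probe there could read either. Klf13 lies on chromosome 7 too, and the part of the region around the knocked-out gene in these values was not tested. Of 9 members on chromosome 7, 1 passed (11.1%), beside 2.02% of all genes. At an unadjusted limma p under 0.05 there were 3 (33.3%), Snord33, Snord35a and Snord35b, beside 14.8% of all genes. Snord35a was at 7.60 and 7.86 in WT4 and WT5 and at 8.22 and 7.999 in KO4 and KO5, a difference of 0.38 ± 0.15 (SE, 2 arrays against 2) that did not pass (limma adjusted p = 0.261), with the KO arrays above the WT arrays. In the exon-level table KO3 was at 7.49 and KO2 at 6.31 against 6.55 and 6.58 in WT2 and WT3, so the arrays overlapped and the mean difference of 0.33 came from KO3; WT1 and KO1 were at 6.07 and 6.37. Over all sets the difference was 0.35 (limma adjusted p = 0.400). Snord35b is a box C/D gene that does not lie in Rpl13a. It was at 6.37 and 6.67 in WT4 and WT5 and at 7.09 and 6.97 in KO4 and KO5. The difference of 0.51 ± 0.14 (SE) did not pass (limma adjusted p = 0.124). With 1 array left out, the difference of Snord35b lay between 0.36 (without WT4) and 0.66 (without WT5). In replicates 2 and 3 its mean difference was -0.13 and the arrays overlapped.

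**Figure D2:**
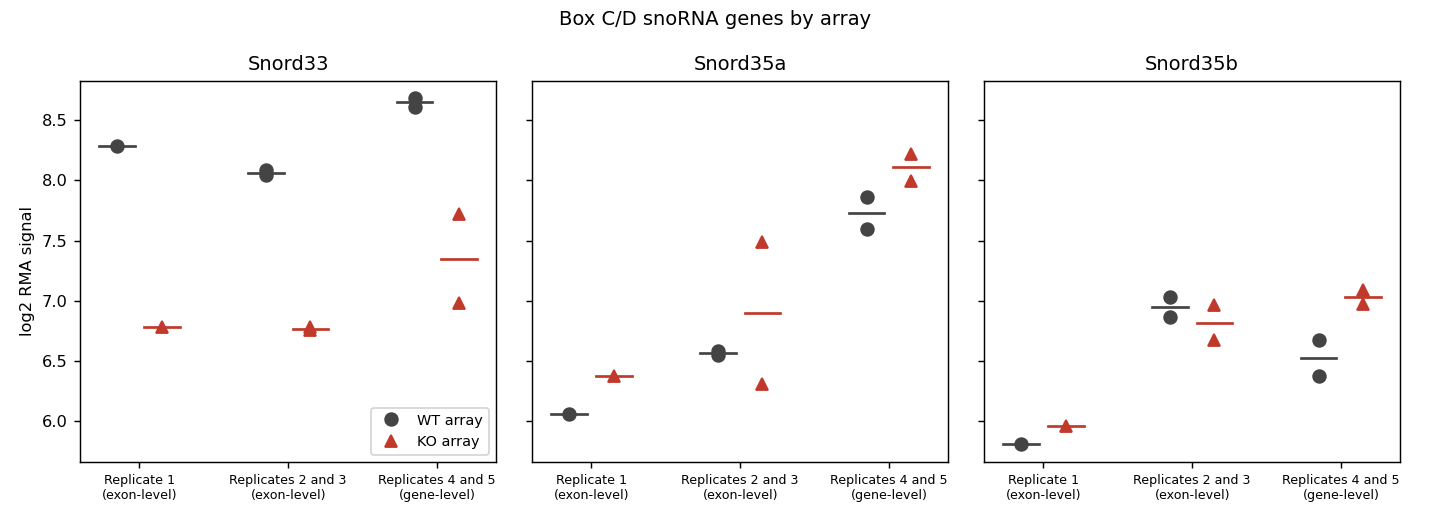
The log2 signal of Snord33, Snord35a and Snord35b on every array, WT as dark circles and KO as red triangles, with a line at each group's mean, in replicate 1 and replicates 2 and 3 of the exon-level table and replicates 4 and 5 of the gene-level table. The KO arrays of Snord33 lie between 6.75 and 7.72, all below the WT arrays of their set (8.04 to 8.68), while Snord35a and Snord35b lie above WT in replicates 4 and 5 and overlap it in replicates 2 and 3.

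The other snoRNAs of Rpl13a and the host itself had no gene-level probe set that named them alone. The probe set that names Snord34 and Rpl13a was at 6.44 and 6.46 in WT and at 7.35 and 6.86 in KO, a difference of 0.65, and that of Snord32a and Rpl13a was at 7.66 and 7.77 in WT and at 8.73 and 8.23 in KO, a difference of 0.77. The probe set that names Rpl13a and Zfp526 was at 12.34 in both WT arrays and at 12.16 and 12.25 in KO, a difference of -0.14. Another probe set, which names Gm11478 as well as these genes, went the other way. It was at 11.19 and 11.23 in WT and at 11.62 and 11.72 in KO, a difference of 0.46. Set beside these, in the gene-level table alone, Snord33 was the one of the 4 snoRNAs of this gene with a lower value. Snord34 and Snord32a were read there only from probe sets that also name Rpl13a. In the exon-level table Rpl13a was at 14.11 in both WT2 and WT3 and at 11.43 and 13.00 in KO2 and KO3, a difference of -1.89 ± 0.51 (SE, 2 arrays against 2; limma adjusted p = 0.475), with its 6 probe sets between -0.35 and -2.67, and at 12.72 and 11.57 in WT1 and KO1.

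The 250 bases upstream of the annotated starts of Rpl13a and Ncl are shown. Each host holds snoRNAs whose KO values lay on opposite sides of WT in the gene-level table, the reason for this choice. These were Snord33 against Snord35a in Rpl13a and Snora75 against Snord82 in Ncl. Ncl encodes nucleolin, an abundant nucleolar protein. The sequences are from RefSeq on GRCm38.p6, both from the minus strand and printed 5′ to 3′ toward the start, at chr7:45128746-45128995 for Rpl13a and chr1:86359456-86359705 for Ncl. Capitals mark the GC box, GGGCGG, or CCGCCC on the opposite strand, searched on both strands, as was the CACCC box, CACCC or GGGTG.
Rpl13a: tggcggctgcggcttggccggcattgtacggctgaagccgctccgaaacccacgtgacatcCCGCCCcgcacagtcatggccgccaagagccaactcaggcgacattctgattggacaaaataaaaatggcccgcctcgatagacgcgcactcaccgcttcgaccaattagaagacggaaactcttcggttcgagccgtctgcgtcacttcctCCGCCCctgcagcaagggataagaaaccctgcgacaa
Ncl: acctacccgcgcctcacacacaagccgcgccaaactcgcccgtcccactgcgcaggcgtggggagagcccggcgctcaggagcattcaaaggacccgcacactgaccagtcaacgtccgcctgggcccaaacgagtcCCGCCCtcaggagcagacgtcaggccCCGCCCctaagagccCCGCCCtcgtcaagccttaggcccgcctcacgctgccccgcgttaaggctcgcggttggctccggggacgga
The Rpl13a window held 2 GC boxes and the Ncl window 3, and neither held a CACCC box, so no match overlapped another motif; 32.7% of the 32851 upstream windows of the annotation held a GC box and 52.0% a CACCC box. These letters are a description of the windows.

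Among other box C/D genes none passed the test in the gene-level table. Snord82, in Ncl, was at 7.47 and 7.32 in WT and at 7.79 and 7.69 in KO, a difference of 0.34 ± 0.13 (SE, 2 arrays against 2; limma adjusted p = 0.244), with no overlap. Snord14e, in the chaperone gene Hspa8, was at 8.07 and 8.11 in WT and at 8.39 and 8.36 in KO, a difference of 0.28 ± 0.12 (limma adjusted p = 0.324). Both stood slightly above WT on each KO array. Snord8, in the chromatin remodeller gene Chd8, differed by 0.21, also without overlap, and Snord96a, in the ribosomal scaffold gene Rack1, by -0.26 (limma adjusted p = 0.441). Snord47, in the growth-arrest transcript Gas5, was at 5.996 and 6.35 in WT and at 6.80 and 6.13 in KO, and Snord57, in Nop56, at 9.91 and 10.31 against 10.57 and 10.07. For these last genes the arrays overlapped, with WT5 and KO4 high and WT4 and KO5 low. Snord49b and Snord104 differed by 0.03 and -0.11. Without KO4, Snord96a was at -0.12, and without KO5, Snord8 was at 0.10.

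Of the 19 H/ACA genes tested, 15 were lower by point estimate and none passed. Snora70, in the large-subunit protein gene Rpl10, was at 7.58 and 7.15 in WT and at 6.70 and 6.97 in KO, without overlap. Its difference was -0.53 ± 0.17 (SE, 2 arrays against 2, limma adjusted p = 0.170). With 1 array left out, the difference of Snora70 lay between -0.74 (without WT5) and -0.32 (without WT4). Snora75, in Ncl, was at 6.13 and 5.95 in WT and at 5.68 and 5.94 in KO, a difference of -0.24, opposite in sign to Snord82 of the same host. Snora41, in the elongation factor gene Eef1b2, differed by -0.27, Snora52, in Rplp2, by -0.28, Snora20, in the chaperonin gene Tcp1, by -0.23, and Snora23, in the nuclear import gene Ipo7, by -0.23. Snora31, in the gene of the translationally controlled tumour protein, Tpt1, was the H/ACA gene that stood above WT without overlap, with a difference of 0.28 ± 0.13 (limma adjusted p = 0.363). The non-coding host Snhg12 held members on both sides of zero, Snora16a at -0.26 and Snora44 at 0.24. Snora7a, in Rpl32, differed by -0.01. Several of these values rested on 1 array: Snora16a was at -0.0081 without WT5 and at -0.51 without WT4, Snora52 at -0.0807 and Snora23 at -0.0983 without WT5, and Snora41 at -0.0608 and Snora75 at -0.11 without KO4.

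Split by host, 13 Snord and 8 Snora genes tested lay in ribosomal protein genes. Their medians were 0.12 and -0.08, and 7 of the 8 Snora genes were lower. Members in non-coding hosts, 11 in all, had a median of -0.11 with 7 lower. The 24 hosts measured in the gene-level table had a median of 0.05, with 15 higher, and none passed the test (limma, adjusted p under 0.05; 0 at an unadjusted p under 0.05). By family, the 12 Snord hosts had a median of 0.04 with 7 higher, and the 13 Snora hosts a median of 0.11 with 9 higher. These 24 are part of 40 hosts, and Rpl13a, the host of Snord33, is not among them. The part of the host differences in the snoRNA values was not tested. Over 15 pairs of a Snord gene and its host, with 12 hosts, the snoRNA lay above its host's difference in 12 and shared its sign in 9. Over 12 pairs of a Snora gene and its host, 1 lay above its host, Snora31, and 6 shared its sign. Pairs of one host are not independent, and no test was run on these counts.

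**Figure D3:**
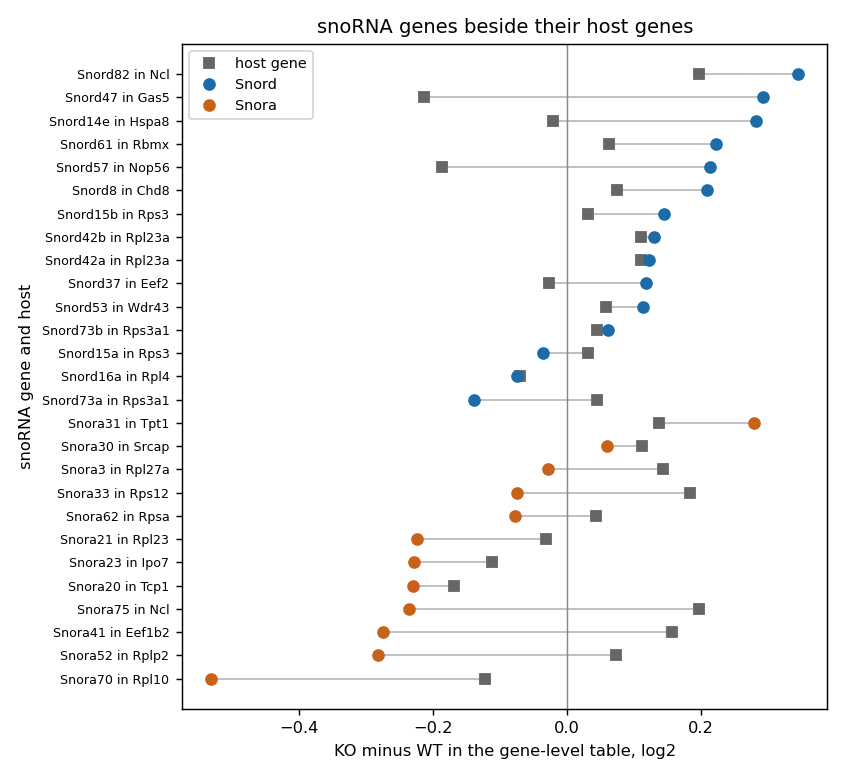
The KO minus WT difference in the gene-level table on the log2 scale for each snoRNA gene (circle, blue for Snord and orange for Snora) and for its host gene (grey square), joined by a line, in the 27 pairs where both passed the brightness filter. Most Snord circles lie to the right of their host and 11 of the 12 Snora circles to the left.

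In replicates 2 and 3 of the exon-level table most snoRNA genes and their hosts were lower in KO by point estimate, as were most genes of the table. Of 18 Snord genes tested 15 were lower, with a median of -0.52, and of 10 Snora genes 9 were lower, with a median of -0.43, while over all 14246 genes the median was -0.17 with 8680 lower. Of 26 hosts 24 were lower, with a median of -1.03, and 14 of them (53.8%) had an unadjusted p under 0.05. No gene of the table passed the test (limma, 0% called; 9.05% of all genes had an unadjusted p under 0.05, against 2 of 18 Snord and 0 of 10 Snora genes). The T cell markers were lower in the same arrays: all 8 of 8 were lower, from -1.80 to -0.54 with a median of -0.72, and 7 had an unadjusted p under 0.05 (limma, 0 called). Averaged over the list, WT2 stood at 10.48, WT3 at 10.51, KO2 at 9.72 and KO3 at 9.55, so both KO arrays lay below both WT arrays. The B cell list (4 of 6 above the filter) had a mean of 5.43 to 5.44 in WT and 5.51 to 5.65 in KO, with 3 of the 4 higher and a median of 0.33, the myeloid list (2 of 7) 4.96 to 5.07 and 5.18 to 5.23, the natural killer list (1 of 4) 4.93 to 4.94 and 4.85 to 5.14, and the erythroid list (2 of 3) 4.44 to 4.66 and 4.49 to 4.65. The part of these marker shifts in the snoRNA and host values was not tested, nor was that of the lower top signal in KO2 and KO3. KO and WT arrays of the snoRNA genes did not overlap on the low side in 11 Snord and 6 Snora genes, 61.1% and 60% of those tested, beside 39.7% of all genes, and in none on the high side, beside 13.8%. With array medians subtracted, the all-gene median moved to -0.0666 and the Snord median to -0.42. With quantile normalization they were -0.0186 and -0.28, so the Snord median lay below the all-gene median under both scalings.

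With KO2 alone, all 18 Snord and all 10 Snora genes lay below WT, with medians of -0.30 and -0.21, against 9437 of 14246 genes and a median of -0.10; KO3 alone gave -0.70 and -0.60, against -0.25 over all genes. KO3 was also the array of narrow spread, and the part of that spread in the result was not tested. KO3 lay below KO2 in 11 of 18 Snord and 7 of 10 Snora genes and above it in 7 and 3 (38.9% and 30%), beside 44% of all genes above. The widest gaps below were in 3 genes, chosen after their values were seen. Snord37, in the elongation factor gene Eef2, was at 6.86 and 6.97 in WT2 and WT3, at 6.48 in KO2 and at 4.14 in KO3, a difference of -1.60 that became -0.44 without KO3. Snord73a, in Rps3a1, differed by -1.23 and by -0.59 without KO3, and Snora3, in Rpl27a, by -1.02 and by -0.33. None of the 3 was lower by more than 0.14 in the gene-level table, where Snord37 differed by 0.12, Snord73a by -0.14 and Snora3 by -0.03. The widest gap above was in Snora52, at 8.58 and 8.70 in WT2 and WT3, 8.38 in KO2 and 10.03 in KO3, a difference of 0.57 that was -0.25 without KO3. Snord15b likewise went from 0.14 to -0.46 and Snord35a from 0.33 to -0.26.

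**Figure D4:**
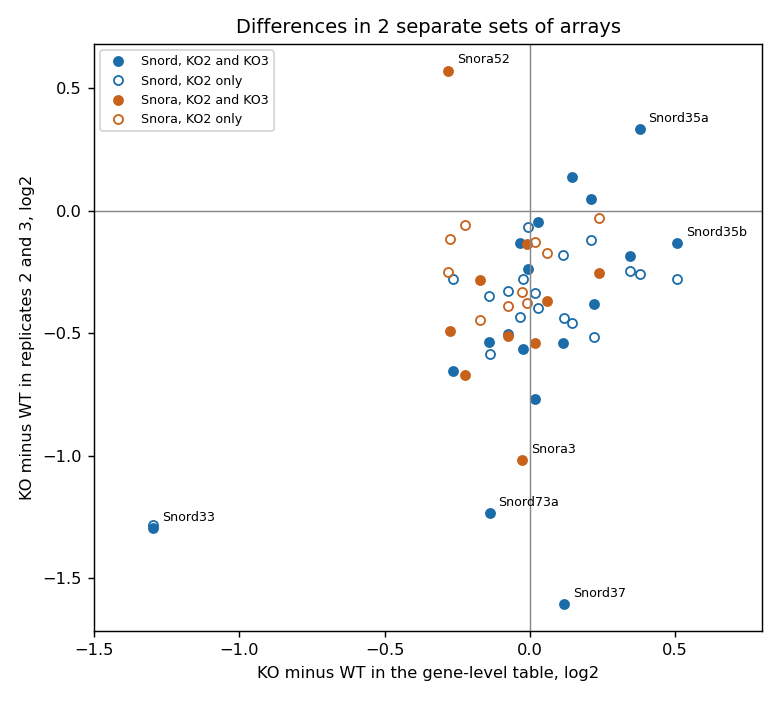
KO minus WT differences on the log2 scale of the 28 snoRNA genes tested over all sets, in the gene-level table (horizontal) and in replicates 2 and 3 of the exon-level table (vertical), as the mean of KO2 and KO3 (filled) and as KO2 alone (open), with Snord in blue and Snora in orange. Snord33 lies at -1.30 on both axes, and most of the others lie below zero on the vertical axis and around zero on the horizontal one.

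In replicate 1, with 1 array a genotype and so no test, the Snord median was 0.02 over 18 genes (10 higher) and the Snora median 0.06 over 10 genes (6 higher), beside -0.015 over all genes. Snord33 was the one member lower by at least 1 log2 unit, as were 0.379% of all genes, and no member was higher by as much, beside 0.323% of all genes. Snora41 was higher there by 0.46, against -0.27 and -0.49 in the other sets.

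Fitted over all 10 arrays with the 3 sets as a block, 1 of 18 Snord genes (5.56%) and 0 of 10 Snora genes passed, beside 0.58% of 12597 genes (limma, adjusted p under 0.05; 0.484% lower, 0.0953% higher). At an unadjusted p under 0.05 there were 2 Snord and 0 Snora genes, 11.1% of the Snord genes, beside 14.9% of all genes. The medians were -0.15 and -0.18, with 13 Snord and 8 Snora genes lower, beside -0.095 over all genes. The KO mean was lower in each of the 3 sets for 3 Snord and 3 Snora genes, beside 24.6% of all genes, and higher in each for 2 Snord and 0 Snora genes, beside 11.3%. Every KO array lay below the WT arrays of its set for Snord33 alone among the 28 members tested, beside 10.7% of all genes. Snord52, below the brightness filter and not tested, had the same order of arrays, with differences of -0.20 in the gene-level table, -0.28 in replicates 2 and 3 and -0.0825 in replicate 1.

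The difference between the gene-level table and replicates 2 and 3 was above zero for 17 of 18 Snord genes, with a median of 0.41, and for 9 of 10 Snora genes, with a median of 0.43, against a median of 0.16 over all genes. No gene passed the test of this difference (limma, 0% called; 11.1% of all genes at an unadjusted p under 0.05), and 1 Snord and 0 Snora genes had an unadjusted p under 0.05. The tables were made separately, and the difference of table and of mice cannot be told apart.

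Within each genotype of the gene-level table, several snoRNA genes shared an order of the arrays. Snord15b, in Rps3, was at 8.34 and 9.10 in WT4 and WT5 and at 9.21 and 8.52 in KO4 and KO5, and Snord55 was at 7.71 and 8.27 in WT and at 8.66 and 7.96 in KO. In both genes WT5 and KO4 were high and WT4 and KO5 low. This order held in 18 of 48 members, 12 Snord and 6 Snora, beside 3811 of all 13944 genes tested. The reverse order held in 14 members, 6 Snord and 8 Snora, beside 4234 of all genes. The 32 members with opposite order in the 2 genotypes were 66.7% of the tested members, beside 57.7% of all genes tested. Across the 48 genes, the WT4 minus WT5 and KO4 minus KO5 differences had a correlation of -0.55, beside -0.235 over 13944 genes. These correlations are a description over genes that share arrays. Whether equal numbers pair the WT and KO arrays is not known. With the numbers crossed, the correlations were 0.55 and 0.235, and opposite order would become the same order.

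**Figure D5:**
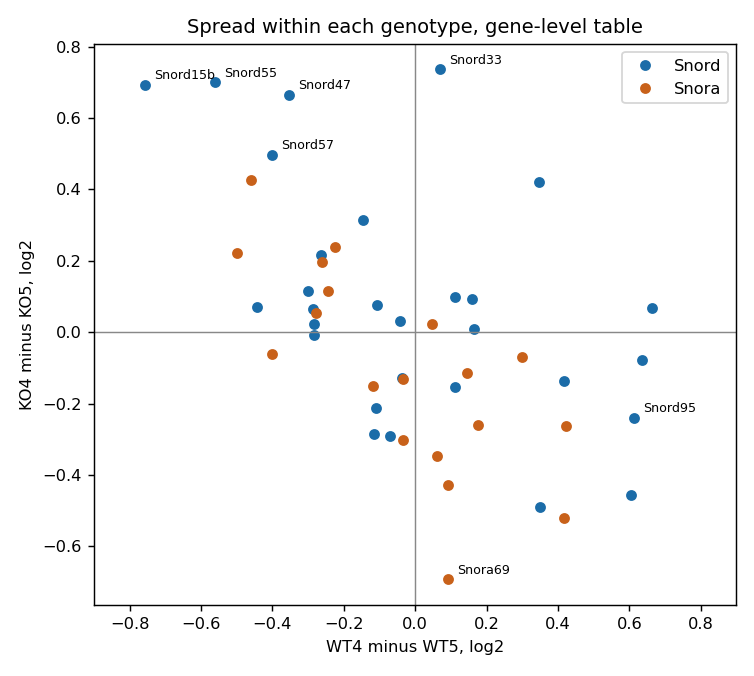
The difference between the 2 WT arrays (horizontal) and between the 2 KO arrays (vertical) on the log2 scale for the 29 Snord (blue) and 19 Snora (orange) genes tested in the gene-level table. The points run from upper left to lower right, with Snord15b and Snord55 at the upper left. The correlation over 48 genes was -0.55, a sign that turns if the replicate numbers are crossed. Snord33 lies high because KO4 and KO5 differed by 0.74.

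The genes that build and handle snoRNA particles showed no called change in the gene-level table. All 5 box C/D proteins were lower by point estimate (median -0.13), among them fibrillarin (Fbl) at -0.13 and Nop56 at -0.19, as were 5 of 6 H/ACA proteins (median -0.14), with dyskerin (Dkc1) at -0.14 and the assembly factor Naf1 at 0.53 (limma adjusted p = 0.306). Of 8 assembly factors 7 were lower (median -0.26); Pih1d1, part of the chaperone complex that loads box C/D proteins, was at 6.82 and 6.71 in WT and at 6.29 and 6.25 in KO, a difference of -0.50 ± 0.12 (SE, 2 arrays against 2; limma adjusted p = 0.0848). Its KO arrays lay below its WT arrays, as did KO1 below WT1. Of 7 trafficking and processing genes 3 were lower (median 0.04), with coilin (Coil), the organiser of Cajal bodies, at -0.21. Of 6 non-coding hosts 3 were lower (median -0.02), with Snhg5 at -0.31 (limma adjusted p = 0.416) and Gas5 at -0.21. At an unadjusted p under 0.05 these lists held 0, 1, 3, 0 and 0 genes, beside 14.8% of all genes. In replicates 2 and 3 the medians were -0.76, -0.61, -0.60, -0.38 and -0.43 with none called by limma, and 3, 1, 2, 0 and 1 genes had an unadjusted p under 0.05, beside 9.05% of all genes.

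Other small RNA genes of the gene-level table did not pass the test either. The 124 microRNA genes above the filter, of 300 named, had a median of 0.07 with 86 higher, the 3 Scarna genes (guides of the Cajal body) a median of -0.0011 and 3 spliceosomal and 7SK RNA genes a median of -0.07 (limma, 0 called; 6 of the microRNA genes at an unadjusted p under 0.05). The 24 Snord116 probe sets, each naming several copies, lay below the brightness filter and differed by -0.10 to 0.16 with a median of 0.07.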

How the data were processed

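The arrays were read as log2 values that the authors deposited after RMA, per the submitters' processing notes; versions and any further step: not given in these sources. The gene-level table held WT4, WT5, KO4 and KO5, the exon-level table the 6 other arrays. Probe sets naming 1 gene were kept, with symbols updated through RefSeq (GRCm38.p6); the brightest probe set stood for a gene in the gene-level table and the mean in the exon-level table. Host genes were assigned by span on GRCm38.p6 without strand, because the gene table gives none. Genes under the 30th percentile of mean signal were left out. Differences were fitted with limma 3.58.1 in R 4.3.3 on log2 values across all genes, with Benjamini-Hochberg adjustment and a threshold of 0.05; the steps were tested on simulated data. The number of arrays limits the precision. The named genes were those past the threshold, up to 8 of smallest p and the 3 brightest in each family, and their hosts; of each list of snoRNA protein genes and non-coding hosts, the 1 of smallest p. Members, lists and rules were chosen with earlier results of these data known. Alternatives covered normalization, filter, model, probe set summary, blocks and leaving out each array. The p-values measure the spread between these mice.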

Additional observations from a re-analysis of the deposited data

Results flagged for a closer look

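Snora52 had a KO3 array that stood far above the other 4 KO arrays, at 1.40 above its WT arrays on the log2 scale. Snora7a had a KO2 array that stood far below the other 4, at -0.38 against its WT arrays. Chance marks about 1 in 20 groups of this size in this way. Snord53 differed by 0.11 in the gene-level table and by -0.54 in replicates 2 and 3, and Snord82 by 0.34 and -0.19; the test of the difference between the sets did not pass for either (limma). Among the probe sets that name several genes and were left out of the comparisons, KO lay above WT by 0.65 for Snord34 with Rpl13a, by 0.77 for Snord32a with Rpl13a, and by 0.236 on each of the 2 probe sets for Snord14d, Snord14c and Hspa8.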

How the results depend on the processing

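Whether equal replicate numbers pair the WT and KO samples is not known. Same-numbered arrays deviated apart, with correlations of deviations of -0.235 over all genes in the gene-level table and -0.391 in replicates 2 and 3. These correlations cannot show how the mice were paired. With the replicate block, 679 genes passed in the gene-level table in place of 282 (1 Snora gene, Snora70), 112 in replicates 2 and 3 in place of 0 (1 Snord gene), and 23 over all sets in place of 73. Crossing the numbers, chosen after seeing the data, gave 798 genes in the gene-level table (2 Snord, Snord33 and Snord35b, and 1 Snora) and 366 in replicates 2 and 3 (3 Snord). With array medians subtracted, 430 genes passed in the gene-level table (94 higher, 336 lower), beside 473 with a trended, robust limma fit and 3 with every probe set on its own, where 0 Snord genes passed. Over all sets 34 passed with another probe set summary and 4 with the table as a block, where 0 Snord genes passed. A trended, robust fit called 17 genes for the difference between sets. Leaving out 1 array gave 174 (without KO4) to 465 (without WT5) genes in the gene-level table, with 1 to 2 Snord and 0 to 1 Snora genes called; 2 to 10853 (without KO2; 2685 without KO3) in replicates 2 and 3, with 0 to 14 and 0 to 8; 12 (without KO4) to 362 (without KO3) over all sets; and 0 to 6724 (without KO2) for the difference between sets, with 0 to 9 and 0 to 8. The single array left in a group was then assumed to vary like the others. Quantile normalization and subtraction of medians gave Snord medians of -0.28 and -0.42 in replicates 2 and 3, and 0.2847 and 0.2813 for the difference between sets. Without 1 array the medians ran from -0.70 to -0.30 (Snord) and -0.60 to -0.21 (Snora) in replicates 2 and 3, from -0.148 to -0.0583 (Snora) in the gene-level table, and from 0.22 to 0.61 (Snora) for the difference between sets. These signs turned: in the gene-level table, Snora7a to 0.0232 with quantile normalization and Snord49b to -0.0023 with medians subtracted; in replicates 2 and 3, Snord35b to 0.0299 and Snord82 to 0.0515 with quantile normalization. Without 1 array, in the gene-level table Snord47 ran from -0.0412 to 0.62, Snord57 from -0.0355 to 0.46, Snord49b from -0.0268 to 0.0801, Snord104 from -0.33 to 0.11 and Snora7a from -0.0355 to 0.0122; in replicates 2 and 3 Snord35a ran from -0.26 to 0.92, Snord35b from -0.28 to 0.0146 and Snora52 from -0.25 to 1.40; Snord33 ran from -0.37 to 0.37 for the difference between sets. The cause of these shifts was not tested.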
